A study of Mus musculus with 4 samples.

Results

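The 10 genes described here encode the signalling chains of the T cell receptor complex (Cd3d, Cd3e and Cd3g), the co-receptors (Cd4, Cd8a and Cd8b1), the costimulatory receptor Cd28, the interleukin 7 receptor chain Il7r and the kinases Lck and Zap70. They were taken by name: every probe whose gene name, or current symbol through its RefSeq accession, was one of these was included. This gave 18 probes for 10 genes, of 41174 probes for 27670 genes on the arrays. All 10 genes had at least 1 probe. They were measured in spleen and liver of male C57BL/6J mice, 7 weeks old, that had eaten 1 of 2 diets for 4 weeks, had received a single injection of lipopolysaccharide at 10 mg/kg and were killed 6 h later. The nucleoprotein diet was a purified diet with 1.2% of the nucleoprotein product S-nuclegen and held 0.5% nucleic acids. The control diet was the purified diet alone, with 0.03% nucleic acids. A standard chow is named in the housing notes, but the diets are given here after the design text. Lipopolysaccharide, a bacterial cell wall component that provokes systemic inflammation, was given to all mice, and no mice without it were analysed here. RNA was pooled per diet before labelling, and the number of mice in a pool is not given in the sources used here.

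Each organ was hybridised on 2 arrays, each of which carried both diets in separate dyes. On array 1 the nucleoprotein pool carried Cy5 and the control pool Cy3, and on array 2 the dyes were exchanged. The labels do not say whether the numbered pools were different mice, so the 2 arrays of an organ were taken as 1 pool per diet. On this reading no test of a diet difference can be made, no p-value is given, and SD in the text is that of the 2 arrays (n = 2), which covers labelling, array and dye error. The share of gene spots well above background was 71.6% and 66.8% for the nucleoprotein pool and 62.2% and 72.8% for the control pool on the spleen arrays, and 66.9% and 58.2% against 55.2% and 66.5% on the liver arrays. Among 7 T cell markers, of which 3 are among the 10 genes, 6 were brighter in spleen on every array (median spleen minus liver difference of 3.17 on the log2 scale) and Cd3e was brighter in liver. All 4 B cell markers were brighter in spleen and all 4 hepatocyte markers in liver. Transcripts of other tissues also differed between the diets. Over all measurable genes, 0.215% were higher and 0.226% lower past 1.5-fold on both arrays in spleen, and 0.317% were lower in liver. In spleen, 7 of 12 measurable hepatocyte markers were higher with the nucleoprotein diet past 1.5-fold on both arrays (Alb, Apoa2, Ahsg, Fgb, Fgg, Fga and Hpx, median of the list 0.86) and 13 of 14 pancreatic acinar markers were lower (Cpb1, Cpa1, Pnlip, Cel, Cela1, Cela3b, Prss2, Reg1, Amy2, Sycn, Clps, Cela2a and Pnliprp1, median of the list -1.11). The summed level of the hepatocyte list was 12.18 to 12.26 (log2) in the nucleoprotein spleen pool and 10.69 to 10.80 in the control spleen pool, and Ttr was not above background in spleen. The summed level of the acinar list was 13.38 to 13.53 in the nucleoprotein spleen pool and 14.64 to 14.70 in the control spleen pool. In liver, 14 of 14 acinar markers were lower (these and Ctrb1, median -4.04), with summed levels of 12.48 to 12.61 in the nucleoprotein pool and 16.79 to 16.81 in the control pool. The part of these tissues in the values below was not tested.

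T cells recognise peptide held on major histocompatibility molecules through a clonally variable receptor that has no signalling tail of its own. The CD3 chains carry the tyrosine motifs that pass the signal on. CD4 or CD8 binds the same histocompatibility molecule and brings LCK to the complex, LCK phosphorylates the CD3 and zeta chains, and ZAP70 docks there and phosphorylates the adaptors that follow. CD28 supplies the costimulatory signal, and IL7R keeps naive and memory T cells alive. Spleen is rich in naive and memory T cells in its white pulp, and liver holds fewer, mixed with NK and NKT cells.

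What each gene's value rests on is the 60-base probe on the array, and the probes printed here are of genes whose probes disagree or that encode the receptor chains. Positions are on mouse build mm7 (NCBI 35), as given in the deposited files. The Cd3d probe lay at chr9:44920433-44920664 on the plus strand and the Cd3g probe at chr9:44907978-44908562 on the minus strand. Both spans exceed the probe length (232 and 585 bases), so by these positions the probes join separate genomic blocks. The Cd3e probe shown, which is not the one that represents the gene, was at chr9:44938246-44938305 on the minus strand. The probe that represents Cd8b1 lay at chr6:71355005-71355063 on the plus strand. The files place the other probe of that name on another chromosome, at chr5:114364254-114364313 on the minus strand. The Cd4 probe lay at chr6:124894079-124894138 on the minus strand and the Cd28 probe at chr1:61023768-61023827 on the plus strand. The probes of Cd3e, Cd8b1 and Cd28 are shown by their first 30 bases, the others whole, and no part is marked by capitals.
Cd3d A_51_P285206: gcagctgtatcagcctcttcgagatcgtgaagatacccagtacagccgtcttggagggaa
Cd3g A_51_P260889: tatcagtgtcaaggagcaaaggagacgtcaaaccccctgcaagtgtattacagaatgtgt
Cd3e A_52_P86404: ctaggaaacatcgatggtaaaaattaagtc
Cd8b1 A_51_P150433: ggaccctggagaagactgcaaatcctcaca
Cd8b1 A_52_P511269: gccatgatccagggaatgaaaagaaatttg
Cd4 A_52_P383089: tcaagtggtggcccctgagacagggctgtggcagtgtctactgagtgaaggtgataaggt
Cd28 A_52_P162967: ctacatggtaagatggaccagaaattgcaa

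In spleen, none of the 10 genes differed between the diets past the bound used for a call, which is a ratio beyond 1.5-fold, or 0.585 in log2 units, that points the same way on both arrays. The count was 0 of 10, where 0.441% of 18150 measurable genes passed it (39 higher, or 0.215%, and 41 lower, or 0.226%). No gene of the 10 passed 1.5-fold on either array alone, so none was past it in opposite directions either, as 0.022% of all genes were. Their ratios of nucleoprotein over control had a median of -0.07 on the log2 scale, with arrays at -0.03 and -0.12, against a median of -0.00035 over all measurable genes, whose ratios ran between -0.15 and 0.13 at the 5th and 95th percentiles. All 10 mean ratios were below 0, as were 50.2% of all genes, and they ran between -0.17 for Cd3g and -0.03 for Zap70. In 5 of the 10 the ratio was below 0 on both arrays, against 19.9% of all genes, in 0 it was above 0 on both, against 20.4%, and in the other 5 the arrays had opposite signs, against 59.7%. In bulk tissue, fewer T cells and less RNA per T cell cannot be told apart.

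The CD3 chains held the lowest spleen ratios of the set. Cd3d, which encodes the delta chain, had channel levels of 11.58 and 11.50 (log2) in the nucleoprotein spleen pool, against 11.70 and 11.63 in the control spleen pool, a ratio of -0.12 ± 0.0030. Both arrays gave nearly the same small difference, and both nucleoprotein levels lay below both control levels. Cd3g, the gamma chain gene, had levels of 9.42 and 9.23 in the nucleoprotein pool, against 9.47 and 9.52 in the control pool, a ratio of -0.17 ± 0.17. The direction was shared by the arrays, but array 2 (-0.29) carried most of it, with array 1 at -0.05. Cd3e, which encodes the epsilon chain that pairs with both of the others, had levels of 7.65 and 7.59 in the nucleoprotein pool, against 7.70 and 7.77 in the control pool, a ratio of -0.11 ± 0.08. Its other probe also lay below 0 on both arrays, at -0.09 and -0.05.

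The representing probes of the co-receptor genes each had 1 spleen array above 0 and 1 below. Cd4, whose product binds class II molecules on helper T cells, had spleen levels of 6.69 and 6.73 with the nucleoprotein diet, against 6.67 and 6.83 with the control diet, a ratio of -0.04 ± 0.08. The levels of the diets overlapped, and its other probe likewise had array 1 above 0 and array 2 below, with a mean of -0.07. Cd8a, the alpha chain of the class I co-receptor of cytotoxic T cells, had levels of 10.85 and 10.72 in the nucleoprotein pool, against 10.76 and 10.98 in the control pool, a ratio of -0.09 ± 0.24. All 3 Cd8a probes had array 1 above 0 and array 2 below 0, with means between -0.09 and -0.03. Cd8b1, which encodes the beta chain, had levels of 12.20 and 12.69 in the nucleoprotein pool, against 12.51 and 12.45 in the control pool, a ratio of -0.03 ± 0.39. Its arrays disagreed more than those of any other gene of the set, at -0.31 and 0.25, and both had the Cy3 channel brighter.

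Cd28, Il7r and the kinases showed the same range. Cd28 had spleen levels of 7.27 and 7.16 with the nucleoprotein diet, against 7.28 on both arrays with the control diet, a ratio of -0.06 ± 0.08. Its other probe, well above background in 1 spleen channel per diet, was at -0.02 and 0.04, with a mean of 0.0084. Il7r had levels of 10.71 and 10.75 in the nucleoprotein pool, against 10.90 and 10.61 in the control pool, a ratio of -0.03 ± 0.24, and the diets overlapped. Its representing probe was at -0.20 and 0.14 on arrays 1 and 2. Of the other Il7r probes, 1 had the opposite signs, at 0.03 and -0.14, and 1 near background was at -0.10 and 0.05. Lck had levels of 11.87 and 11.65 in the nucleoprotein pool, against 11.77 and 11.88 in the control pool, a ratio of -0.07 ± 0.23, and the diets overlapped again. Zap70, the kinase recruited after Lck has acted, had levels of 10.33 and 10.26 in the nucleoprotein pool, against 10.34 and 10.30 in the control pool. Its ratio of -0.03 ± 0.02 was the one nearest to 0.

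**Figure D1:**
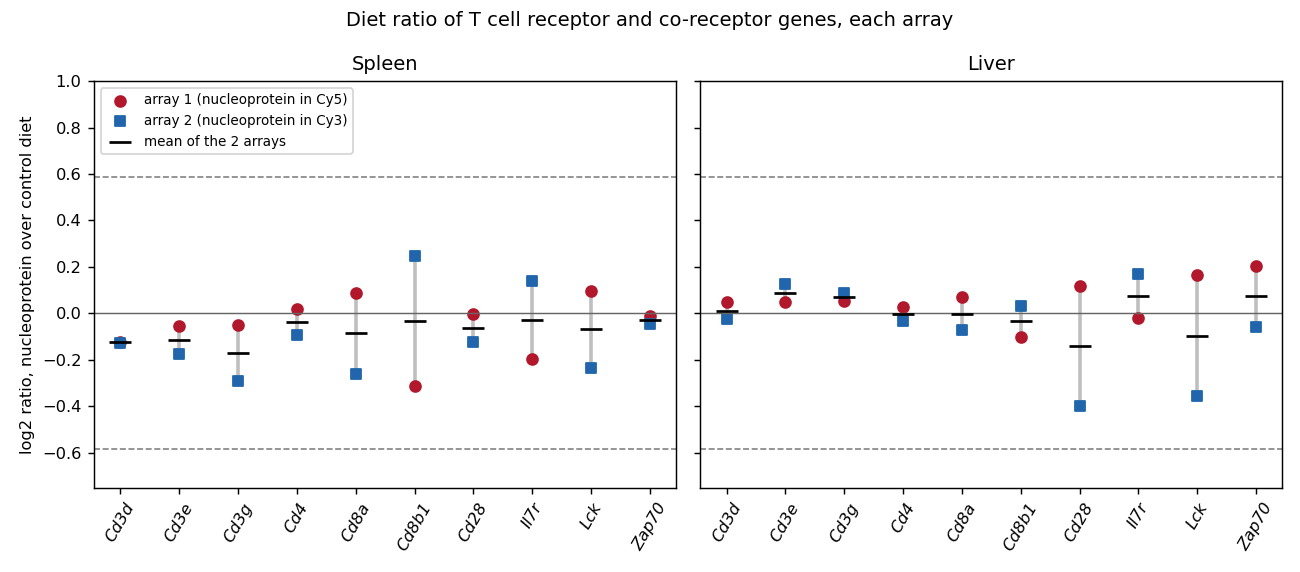
Log2 ratio of nucleoprotein over control diet for each of the 10 genes in spleen (left) and liver (right); circles are array 1, with nucleoprotein in Cy5, squares are array 2, with nucleoprotein in Cy3, and black bars are their means. Dashed lines mark 1.5-fold; no point of any gene reaches them, all 10 spleen means lie below 0, and Cd8a in liver was not measurable by the background rule.

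In liver, Cd8a was well above background in the Cy5 channel on 2 arrays and in the Cy3 channel on 0, so it was not measurable in either diet, and 9 genes remained. Again 0 of 9 passed the bound, where 0.329% of 16406 measurable genes did (2 higher, or 0.0122%, and 52 lower, or 0.317%). More genes of the whole array passed it in opposite directions on the 2 liver arrays (74, or 0.451%) than in the same direction. The median ratio of the 9 was 0.01, equal to the 0.01 of all genes at this precision, and 4 of 9 were below 0, against 41.6% of all genes. Only Cd3e and Cd3g were above 0 on both arrays (2 of 9, against 20.5% of all genes), and 7 of 9 had opposite signs, against 65.9%.

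Cd3e had liver levels of 8.64 and 8.32 with the nucleoprotein diet, against 8.59 and 8.19 with the control diet, a ratio of 0.09 ± 0.06. Cd3g had levels of 6.69 and 6.68 in the nucleoprotein pool, against 6.64 and 6.59 in the control pool, a ratio of 0.07 ± 0.02. Cd3d had levels of 7.02 and 6.89 in the nucleoprotein pool, against 6.97 and 6.91 in the control pool, a ratio of 0.01 ± 0.05. As processed here, the 3 chains were thus within 0.13 log2 units of 0 on every liver array. Among them only the Cd3g levels did not overlap between the diets, and the share of all genes without overlap was not counted. The size depended on the setting. At an offset of 10 the mean liver ratio of Cd3g was 0.14. That of Cd3e was 0.29 with median centring, where the median of all genes was 0.17, and 0.02 with all probes averaged. Cd3e and Cd3g had spleen and liver ratios on opposite sides of 0 on both arrays of each organ, as had 6.55% of the 15317 genes measurable in both.

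Lck had liver levels of 9.24 and 8.96 with the nucleoprotein diet, against 9.07 and 9.31 with the control diet, a ratio of -0.10 ± 0.37. Cd28 had levels of 7.73 and 7.52 in the nucleoprotein pool, against 7.61 and 7.92 in the control pool, a ratio of -0.14 ± 0.36. Both genes were brighter in the Cy5 channel of each liver array, whichever diet it carried. Zap70 had levels of 8.63 and 8.51 in the nucleoprotein pool, against 8.42 and 8.57 in the control pool, a ratio of 0.07 ± 0.18. Il7r had levels of 6.50 and 6.67 in the nucleoprotein pool, against 6.52 and 6.50 in the control pool, a ratio of 0.07 ± 0.13. Il7r was well above background on 2 nucleoprotein channels and 1 control channel, and with the deposited log ratios in place of loess values its mean was 0.577, close to the bound. Cd4 (0.03 and -0.03) and Cd8b1 (-0.10 and 0.03) had 1 array on each side of 0. Over the 9 genes, 5 had the Cy5 channel brighter on both liver arrays, against 37.9% of all genes, and in spleen 3 of 10 did, against 34.3%.

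Probes spotted up to 10 times on each array showed how the spread within an array compared with that between arrays. For Cd28 on the liver arrays, the 10 spots of array 1 averaged 0.12 ± 0.05 (SD over spots) with 0 below 0, while the 10 spots of array 2 averaged -0.40 ± 0.05 with 10 below 0. The spots of each array agreed closely, and the arrays lay on opposite sides of 0. On the spleen arrays the Cd28 spots averaged -0.0045 ± 0.06 on array 1, with 5 of 9 below 0, and -0.12 ± 0.04 on array 2, with 9 of 9 below 0. The Cd4 probe had 5 of 10 spots below 0 on spleen array 1 and 9 of 10 on spleen array 2, with SDs of 0.06 and 0.09. The Cd8a probe with repeat spots, which is not the one that represents the gene, had 6 of 10 below 0 on spleen array 1 and 9 of 10 on spleen array 2, with SDs of 0.14 and 0.09. Repeat spots share 1 labelled pool and 1 array, so their number adds no replicate of a diet.

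**Figure D2:**
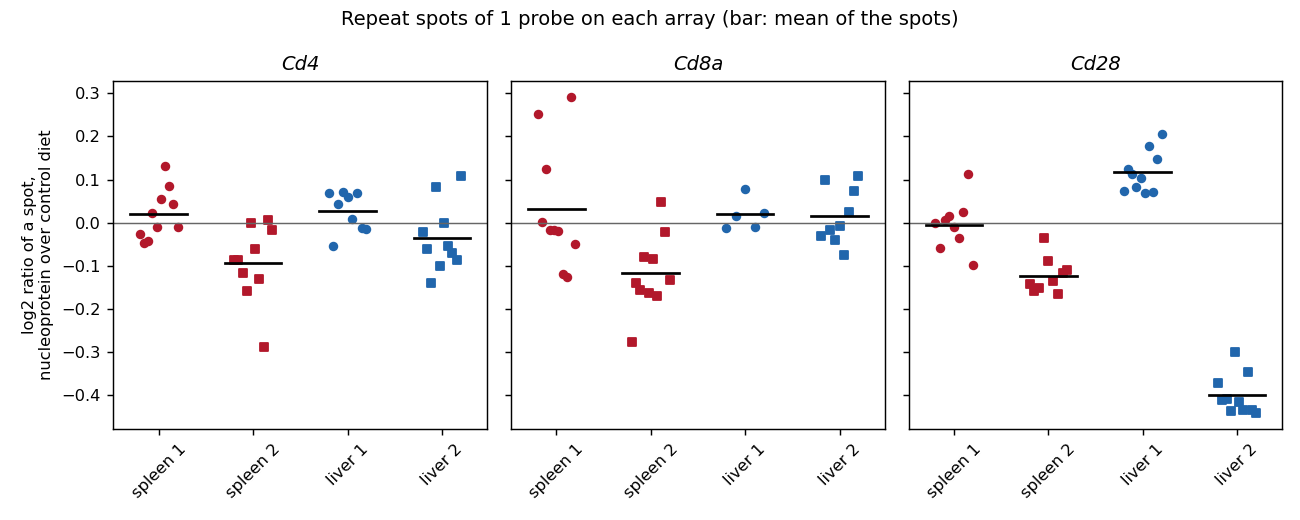
Log2 ratio of nucleoprotein over control diet of every retained spot of the Cd4, Cd8a and Cd28 probes that were spotted up to 10 times, by array; red is spleen, blue is liver, circles are array 1, squares are array 2 and bars are means over spots. The Cd28 spots form 2 separate groups on the liver arrays, at 0.12 and -0.40, while the spleen spots of all 3 genes lie closer together.

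The organs differed far more than the diets. For 7 of the 10 genes all 4 spleen levels were above all 4 liver levels, where 44.2% of 18975 genes were, and for 2 of the 10 all liver levels were above, where 35.9% were. The median spleen minus liver difference over the 10 was 2.65 in the nucleoprotein pools and 2.76 in the control pools on the log2 scale. Folds are given within a probe only, since levels of different probes cannot be set against each other. Cd8b1 was brighter in spleen by 47.9-fold in the nucleoprotein pools and by 47.8-fold in the control pools, with spleen levels of 12.20 to 12.69 and liver levels of 6.84 to 6.94. Cd3d was brighter in spleen by 24.1-fold and 26.4-fold in the nucleoprotein and control pools. Cd8a was brighter by 21.0-fold and 22.3-fold in these pools, but its liver level was well above background on only 1 of the 2 arrays in each diet, so these folds rest on a liver level that was measured in part. Il7r was brighter by 17.7-fold in the nucleoprotein pools and 19.0-fold in the control pools. Cd3g was brighter by 6.23-fold in the nucleoprotein pools and 7.38-fold in the control pools.

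The direction of these differences held under the other settings, but their size did not. With processed signals scaled to the 75th percentile, the log2 spleen minus liver difference of Cd8a was 6.69 in the nucleoprotein and 6.72 in the control pools, against 4.39 and 4.48 as processed here. That of Il7r was 5.68 and 6.29, against 4.14 and 4.25. That of Cd3g was 4.25 and 4.52, against 2.64 and 2.88. Cd3d (5.74 and 5.86, against 4.59 and 4.72) and Cd8b1 (6.64 and 6.50, against 5.58 and 5.58) moved less, and an offset of 10 moved all 5 genes the same way by a smaller amount. Averaging all probes of a gene brought Cd8b1 down to 2.38 and 2.46, Il7r to 1.74 and 1.81 and Cd8a to 3.28 and 3.33 in the nucleoprotein and control pools. The Cd8b1 average takes in the probe that the files place on chromosome 5, whose difference was -0.81 and -0.67 in these pools. The Il7r average takes in a probe that was well above background in 1 spleen channel and 0 liver channels.

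Both kinases were also brighter in spleen. Lck was brighter in spleen by 6.32-fold in the nucleoprotein pools and 6.21-fold in the control pools. Zap70, which NK cells also use, was brighter by 3.30-fold and 3.54-fold in the same pools. Their liver levels, at 8.96 to 9.31 for Lck and 8.42 to 8.63 for Zap70, were well above background in every channel.

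Cd3e, Cd28 and Cd4 did not follow this order with the probes that represent them. The Cd3e probe was brighter in liver, by 1.81-fold in the nucleoprotein pools and 1.57-fold in the control pools, with levels of 7.59 to 7.77 in spleen and 8.19 to 8.64 in liver. The other Cd3e probe was well above background in spleen and in 0 liver channels, and was at least 1.34-fold brighter in spleen with the nucleoprotein diet and at least 1.44-fold with the control diet. The Cd28 probe was brighter in liver by 1.33-fold and 1.40-fold in the nucleoprotein and control pools, whereas its other probe had all 4 levels higher in spleen (6.29 to 6.33) than in liver (6.08 to 6.20). That probe was well above background in 1 spleen channel per diet and in 0 liver channels. The Cd4 levels overlapped between the organs, at 6.67 to 6.83 in spleen and 6.78 to 6.83 in liver. The other Cd4 probe, well above background in 3 spleen channels and 0 liver channels, was at least 1.20-fold and 1.32-fold brighter in spleen in the nucleoprotein and control pools. The bounds set the bright organ against the lowest signal of probes well above background, or the dim probe's own signal where that was higher.

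The Cd8b1 probe that the files place on chromosome 5 was brighter in liver by 1.76-fold in the nucleoprotein pools and 1.59-fold in the control pools, opposite to the chromosome 6 probe. Its liver diet ratio was 0.50 on array 1 and -0.48 on array 2, an SD of 0.69, which was larger than that of any probe that represents one of the 10 genes. All 3 Cd8a probes were brighter in spleen, the other two by 10.3-fold and 4.24-fold in the nucleoprotein pools and by 10.7-fold and at least 4.27-fold in the control pools. Of these, the first was well above background in liver on 1 of 2 arrays per diet and the second on 1 nucleoprotein array only. Of the other Il7r probes, 1 was at least 1.95-fold brighter in spleen in the nucleoprotein pools and at least 2.05-fold in the control pools, and 1 overlapped between the organs near background. Probes of Cd3e, Cd4 and Cd28 thus differed in the order of the organs within a gene, though the probe brighter in spleen was above background in 0 liver channels for each.

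**Figure D3:**
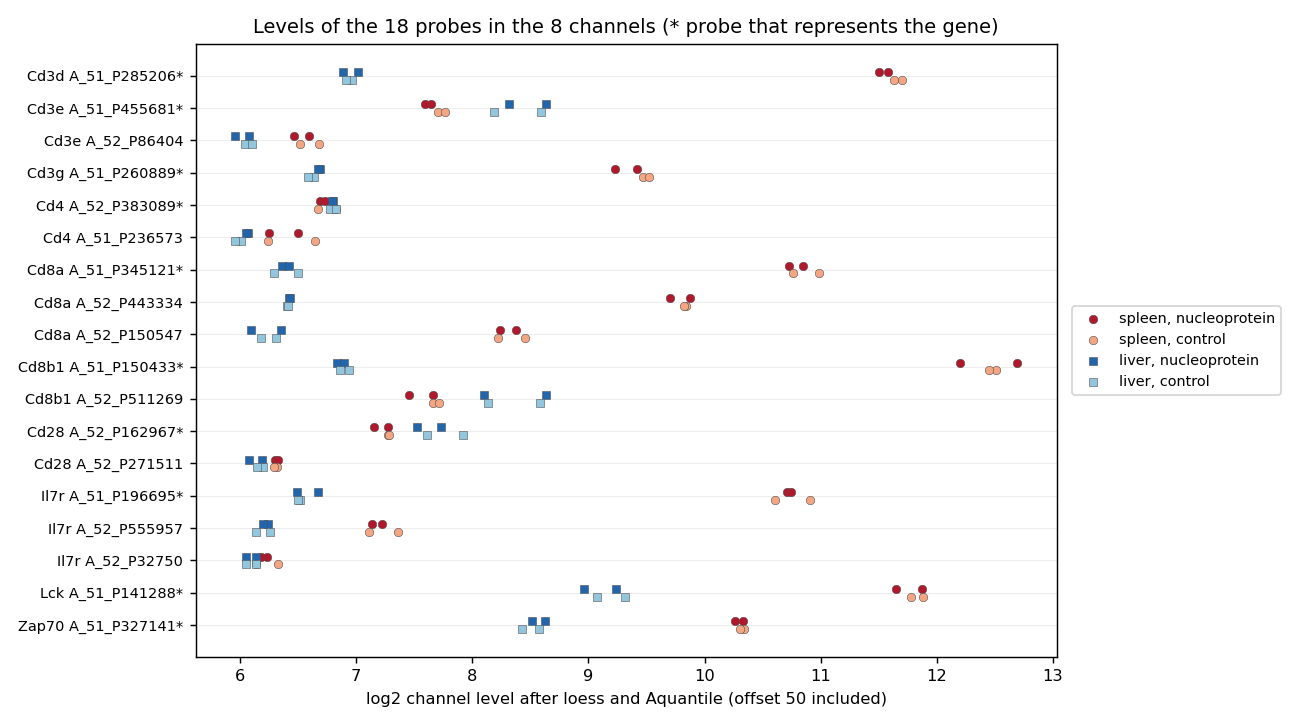
Log2 channel levels of the 18 probes in the 8 channels, after loess within and Aquantile scaling between arrays; circles are spleen, squares are liver, darker colours are the nucleoprotein pools and lighter ones the control pools, and asterisks mark the probe that represents a gene. Spleen and liver lie far apart for the representing probes of Cd3d, Cd3g, Cd8a, Cd8b1, Il7r and Lck. The diets lie close together within an organ, and the representing Cd3e and Cd28 probes have the liver points to the right.

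Genes that act with the 10 in T cells were taken from 5 further lists of receptor signalling, costimulation, homing, transcription factor and activation genes. Of 95 entries 94 were on the array. In spleen, 0 of 85 measurable genes passed 1.5-fold on both arrays, where 0.441% of all genes did, with 25 above 0 and 60 below, where 50.2% of all genes were below. In liver 0 of 70 passed, where 0.329% of all genes did, with 48 above 0 and 22 below, where 41.6% of all genes were below. By organ, 76 of the 94 were brighter in spleen on every array and 10 in liver, counted without a background filter. Among the 18975 genes measurable in at least 1 organ, these shares were 44.2% and 35.9%.

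The receptor signalling list had a spleen median of -0.03 (19 of 25 below 0), against -0.00035 for all genes. Its brightest members in spleen were Ptprc, the CD45 phosphatase that activates LCK (0.06 ± 0.32), Ptpn6, the SHP-1 phosphatase (-0.09 ± 0.05), and Vav1, an exchange factor (-0.02 ± 0.18). The list ran between -0.19 ± 0.32 for the adaptor gene Grap2 and 0.15 ± 0.25 for the kinase gene Txk. Neither end exceeded the spread between its 2 arrays. The other Grap2 probes ran between -0.09 and 0.08, and the other Txk probe was at 0.11. Other probes of Ptprc ran between -0.18 and 0.05, and those of Ptpn6 between 0.01 and 0.02.

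The costimulation list had a spleen median of -0.07, with 15 of 17 below 0. Thy1, a surface glycoprotein of mouse T cells, had the lowest ratio at -0.43 ± 0.01, with arrays at -0.44 and -0.43, and its other probe at -0.19. The probes of Thy1 shared the direction, and the array values stayed short of 1.5-fold. The other T cell markers outside the 10 genes were the surface genes Cd2 (-0.15 ± 0.0073) and Cd5 (-0.27 ± 0.02), of the same list, and the zeta chain gene Cd247 (-0.02 ± 0.26), of the signalling list. Btla, an inhibitory receptor gene, was the highest at 0.07 ± 0.03. The brightest of the list, the TNF receptor family genes Tnfrsf18 (-0.0022 ± 0.03) and Tnfrsf4 (0.05 ± 0.07) and the scavenger receptor family gene Cd6 (-0.05 ± 0.20), were near 0.

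The homing and cytokine receptor list had a spleen median of -0.03, with 8 of 14 below 0. Itgb7, which encodes the integrin beta 7 chain that directs lymphocytes to gut, had the lowest ratio at -0.50 ± 0.15, with arrays at -0.39 and -0.61. One array alone passed 1.5-fold. Ccr6, a chemokine receptor gene, was the highest at 0.10 ± 0.09. The brightest were Il4ra (0.0024 ± 0.29), Il2rb (-0.03 ± 0.12) and Itgal (0.0055 ± 0.25), the last of them a chain of LFA-1.

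The transcription factor list had a spleen median of -0.08, with 13 of 17 below 0. Tbx21, which encodes the Th1 factor T-bet, was among the brightest of the list and had the lowest ratio at -0.28 ± 0.18. Satb1, a chromatin organiser, was at -0.08 ± 0.11, and Id2, an inhibitor of E proteins, was the highest at 0.09 ± 0.19. The other probe of each lay on the other side of 0, at 0.06 for Satb1 and -0.05 for Id2. The activation list had a spleen median of 0.02, with 5 of 12 below 0. Nr4a1, an immediate early gene of receptor signalling, was the highest at 0.16 ± 0.07, Myc was at 0.04 ± 0.10, and Ifng, the interferon gamma gene, was the lowest at -0.20 ± 0.06. Beside these, the NK cell list had a spleen median of 0.06, with 10 of 12 above 0, and the neutrophil list one of 0.16. The B cell list had one of -0.02, with 7 of 11 below 0. The macrophage and Kupffer cell list had one of -0.05, with 6 of 10 below 0, and the dendritic cell list one of 0.07. In each of these lists 0 genes were called in spleen, where 0.441% of all genes were.

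**Figure D4:**
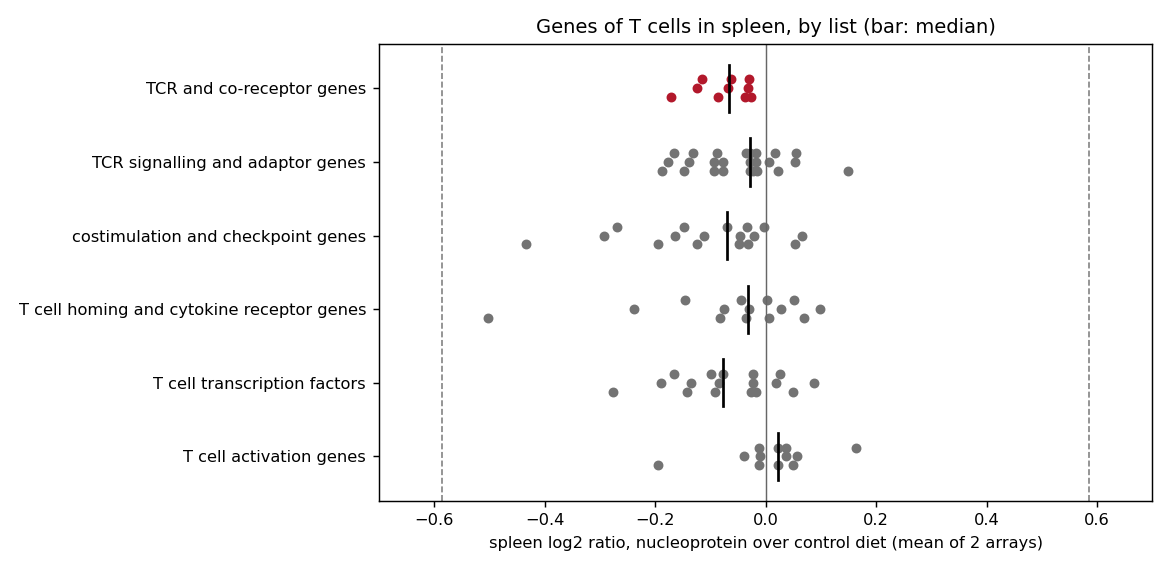
Mean spleen log2 ratio of nucleoprotein over control diet for the 10 genes (red, top) and the measurable genes of the 5 other T cell lists (grey), with black bars for medians and dashed lines at 1.5-fold. No mean lies beyond the dashed lines; the lowest are Itgb7 at -0.50 and Thy1 at -0.43, and the 10 genes lie between -0.17 and -0.03.

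The genes whose pattern over the 8 channels (4 arrays by 2 dyes) was most like the median of the 10, each centred on its own mean, were Hcst, Nusap1, Pdk3, B3gnt5 and Osbpl5 among 14450 candidates. Their Euclidean distances were 0.13, 0.16, 0.16, 0.17 and 0.18 on the log2 scale. The distances of the 10 genes themselves to this median ran between 0.19 for Cd3g and Lck and 4.91 for Cd3e. The 8 channels come from 4 arrays, so this likeness describes mainly the difference between the organs.

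Promoters were looked up because Cd3d and Cd3g, which were both below 0 on both spleen arrays, are close neighbours read in opposite directions. RefSeq (GRCm38.p6) promoter windows of 250 bases before and 50 after the start matched 7 of the 10 genes, in 10 windows. The Cd3d window was at chr9:44981536-44981835 on the plus strand and the Cd3g window at chr9:44980382-44980681 on the minus strand, with 854 bases between them. The letters GGAAG, the core bound by ETS factors, and their reverse complement CTTCC were in 8 of 10 windows and 6 of 7 genes, against 71.4% of all 32851 windows. The letters TGTGGT, the core bound by RUNX factors, and their reverse complement ACCACA were in 3 of 10 windows and 3 genes, against 16.8% of all windows. Both shares are per window. Lck and Zap70 have several windows each, and no share per gene was taken to set beside the gene counts. Both strands were searched. Capitals mark GGAAG or CTTCC, which the Cd3d window holds in 2 places and the Cd3g window in 0, and neither window held TGTGGT.
Cd3d promoter: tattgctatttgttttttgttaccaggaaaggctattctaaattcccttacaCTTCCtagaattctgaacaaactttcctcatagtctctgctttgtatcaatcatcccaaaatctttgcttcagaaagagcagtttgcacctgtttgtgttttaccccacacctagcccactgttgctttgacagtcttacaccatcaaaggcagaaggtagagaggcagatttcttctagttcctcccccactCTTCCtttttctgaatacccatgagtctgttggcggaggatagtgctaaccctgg
Cd3g promoter: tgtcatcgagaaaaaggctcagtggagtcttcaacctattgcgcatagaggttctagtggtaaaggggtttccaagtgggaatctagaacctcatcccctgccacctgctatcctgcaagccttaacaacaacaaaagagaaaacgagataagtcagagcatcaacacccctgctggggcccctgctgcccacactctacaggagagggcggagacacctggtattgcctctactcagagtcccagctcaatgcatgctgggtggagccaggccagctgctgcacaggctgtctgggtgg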

How the data were processed

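RNA of pooled spleens and livers was hybridised on 4 two-colour whole-genome arrays on 1 slide. Scanner images were read by the authors with Agilent Feature Extraction (version 9.5.3.1 in the submitters' processing notes). Per the file headers, the deposited spot tables give mean, background and processed intensity, log10 of red over green, and its p-value. The authors' deposited value table matched the linear red over green ratio, used here as a score, within 0.02 log2 units for 99.4% to 99.7% of spots. It carries a minus sign throughout on the replicate 1 arrays, of unstated purpose, and its column medians are -0.96 and 0.96 in spleen and -0.92 and 0.92 in liver, with no further centring.

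From the intensities, background was corrected by normexp (offset 50) and ratios by loess within arrays (limma 3.58.1, R 4.3.3), with control spots at weight 0. Outlier spots were left out (189 to 354 per array), and 0 were saturated. Ratios were turned to nucleoprotein over control, spots of a probe averaged, and a gene represented by its brightest probe over the arrays. Levels came from Aquantile scaling. A gene was measurable when well above background on both arrays in at least 1 diet. Probes were named through RefSeq (GRCm38.p6), 22951 by accession and 9768 by symbol or synonym, while 8455 kept their name. The number of arrays limits the precision. The rule for a call was run on simulated ratios with known changes, and the steps before it were not tested in this way.

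The members and lists were chosen with earlier results of these data known. Named beside the 10 genes are those of the 12 other lists past 1.5-fold on both arrays, the T cell markers and, of each of the 5 T cell lists, the 3 brightest in spleen and the highest and lowest mean spleen ratio. Alternatives were another offset, median centring, the deposited log ratios or processed signals, outlier spots kept, all probes averaged, a stricter background filter, and either array alone. Not all probe sequences are reported here.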

Additional observations from a re-analysis of the deposited data

Results flagged for a closer look

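Cd3e and Cd3g drew attention because their diet ratios lay below 0 on both spleen arrays and above 0 on both liver arrays, while 6.55% of the 15317 genes measurable in both organs had such opposite sides in either order. The spleen minus liver difference of the log2 ratio was -0.20 for Cd3e (spleen -0.11, liver 0.09) and -0.24 for Cd3g (spleen -0.17, liver 0.07). The difference was not tested, since each diet was taken as 1 pool per organ. The other Cd3e probe was below 0 on all 4 arrays, and in liver it was not above background.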

How the results depend on the processing

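The spleen median of the 10 genes stayed below 0 under every alternative run, and all 10 mean ratios were below 0 under the 5 alternatives that change the processing of both arrays. The count of the 10 genes past 1.5-fold on both arrays was 0 in each organ under every alternative, single arrays included. Single arrays gave spleen medians of -0.12 to -0.03 and liver medians of -0.02 to 0.05. Over all genes, the spleen count of 39 higher and 41 lower became 66 and 54 at an offset of 10, 30 and 10 with median centring, and 102 and 81 with the deposited log ratios. The liver count of 2 higher and 52 lower became 3 and 57, 0 and 32, and 28 and 106 under the same 3 settings. Either array alone gave 52 to 58 higher and 57 to 88 lower genes in spleen, and 30 to 196 higher and 96 to 258 lower genes in liver. Median centring moved the liver median of all genes to 0.17, and 7 of the 9 measurable members were below it. The spleen minus liver level difference became 3.03, 2.06 and 3.44 in the nucleoprotein pools and 3.17, 2.14 and 3.55 in the control pools with an offset of 10, all probes averaged and processed signals. Single arrays gave 2.62 to 2.68 in the nucleoprotein pools and 2.75 to 2.77 in the control pools. The cause of these moves was not tested. Of 240 alternative values of single genes, 52 moved by more than the SD of the 2 arrays. The 240 include values that could not do so. A single array always lies within that SD of the mean of the 2, and averaging probes changes nothing for a gene with 1 probe. The count therefore does not measure stability. The sign changed in 20, of values that were not called in any case: 14 with a single array and 6 otherwise. The 6 were the liver ratios of Cd3d and Cd4 with the deposited log ratios, of Lck with median centring (0.10, against -0.10) and of Cd4 with all probes averaged, and the spleen minus liver difference of Cd4 in both diets with all probes averaged (0.11 in the nucleoprotein and 0.20 in the control pools). No paired analysis was possible because each array already holds both diets and, with 1 pool per diet assumed, no test was run.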
